A study of Mus musculus with 8 samples.

Results

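The genes described here are the TGF-beta ligands (Tgfb1, Tgfb2, Tgfb3), their receptors (Tgfbr1, Tgfbr2, Tgfbr3) and the latent TGF-beta binding proteins (Ltbp1, Ltbp2, Ltbp3, Ltbp4). They were taken by gene symbol from a table of 22053 protein-coding rows, and all 10 symbols were found. All mice were wild type and were taken on postnatal day 10. The cells of 4 libraries were sorted from the spine and are labelled candidate vertebral skeletal stem cells (vSSC). Those of the other 4 came from femur and tibia and are labelled long bone skeletal stem cells (lbSSC). Each site has 2 male libraries, replicates 1 and 2, and 2 female libraries, replicates 3 and 4. All libraries share one sort phenotype: CD200 positive, with cells that carried CD105, 6C3, Thy, CD45, TER119 or CD31 left out. The labels call the libraries biological replicates and do not give the number of mice behind each, so p-values rest on how far these libraries differ from each other.

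TGF-beta is made as a precursor whose cleaved propeptide stays wrapped around the growth factor and keeps it inactive. A latent TGF-beta binding protein is joined to this small latent complex and anchors it in the extracellular matrix, where integrins and proteases release the ligand. The free ligand binds the type II receptor, which phosphorylates the type I receptor, and this in turn phosphorylates Smad2 and Smad3. Bone matrix is a large store of latent TGF-beta, and the pathway acts on both cartilage growth and bone remodelling.

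On GRCm38 the ligand genes lie at chr7:25687002-25705077 (Tgfb1), chr1:186622792-186705989 (Tgfb2) and chr12:86056744-86079041 (Tgfb3), and the receptors at chr4:47353222-47414931 (Tgfbr1), chr9:116087698-116175363 (Tgfbr2) and chr5:107106570-107289629 (Tgfbr3). The latent binder genes lie at chr17:75005568-75392512 (Ltbp1), chr12:84783212-84876532 (Ltbp2), chr19:5740904-5758532 (Ltbp3) and chr7:27305136-27337692 (Ltbp4). The table gives one level per gene, not per transcript or exon.

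Levels are in FPKM, which corrects the fragments of a gene for the length of its transcript and for library size, so that levels of different genes can be set side by side. Differences between the sites are vSSC minus lbSSC in log2(FPKM + 1) ± SE. They were tested with limma across 10729 genes that reached an FPKM of 1 in at least 4 libraries, and calls were made where the p adjusted by Benjamini-Hochberg was under 0.05. All 10 genes passed that filter, and each was above 1 FPKM in all 8 libraries. Adding 1 before the log makes differences of weakly expressed genes appear smaller.

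The vertebral cells had less mRNA of Tgfb2 and Tgfb3 and of the latent binders Ltbp1 and Ltbp3. Tgfb1 and the signalling receptors Tgfbr1 and Tgfbr2 were close to level. Of the 10 genes 4 were called lower in vSSC and 0 higher, where 9.17% of all tested genes were called lower and 14.3% higher, 23.5% together. In the same 4 genes every vSSC library lay below every lbSSC library, where this held for 9.99% of tested genes and separation in either direction for 25.8%. Among all genes the split of calls moved with scaling, from 984 lower of 2518 as deposited to 1363 lower of 2365 when the libraries were rescaled to one sum; the 4 genes were called lower under each scaling. The median difference over the 10 genes was -0.50, beside 0.08 over all tested genes. In bulk libraries fewer cells of a type and less RNA per cell cannot be told apart.

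Start-site sequences are shown for 3 of the called genes and for Tgfb1, the ligand that was level. Of the 10 genes 8 had an entry in the RefSeq promoter windows (GRCm38.p6); Tgfb3 and Tgfbr3 had none. Each line gives the 250 bases before the annotated start, and Ltbp1 is shown at the upstream of its annotated starts. Capitals mark matches on either strand. The core Smad binding sequence was searched as CAGAC. The site of the AP-1 factors was searched as TGAGTCA. The cyclic AMP response element was searched as TGACGTCA. For the E-box the letters were CACGTG, for the GC box they were GGGCGG, and for the TATA box they were TATAAA.

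Tgfb2, chr1:186705990-186706239, minus strand: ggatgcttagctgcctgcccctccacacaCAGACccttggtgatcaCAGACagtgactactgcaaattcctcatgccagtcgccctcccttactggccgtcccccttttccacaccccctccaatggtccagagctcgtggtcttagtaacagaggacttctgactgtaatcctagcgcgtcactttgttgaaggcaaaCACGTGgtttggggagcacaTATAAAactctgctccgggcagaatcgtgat
Ltbp1, chr17:75005279-75005528, plus strand: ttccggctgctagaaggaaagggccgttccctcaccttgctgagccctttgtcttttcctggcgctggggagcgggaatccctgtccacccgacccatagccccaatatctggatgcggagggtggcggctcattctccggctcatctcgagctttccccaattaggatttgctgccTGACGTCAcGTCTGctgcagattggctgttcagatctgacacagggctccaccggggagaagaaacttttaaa
Ltbp3, chr19:5740650-5740899, plus strand: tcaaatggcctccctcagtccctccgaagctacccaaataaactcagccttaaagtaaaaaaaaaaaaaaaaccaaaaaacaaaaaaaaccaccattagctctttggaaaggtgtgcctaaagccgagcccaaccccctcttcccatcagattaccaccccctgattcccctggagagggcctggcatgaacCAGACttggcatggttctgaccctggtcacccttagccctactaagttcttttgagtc
Tgfb1, chr7:25686752-25687001, plus strand: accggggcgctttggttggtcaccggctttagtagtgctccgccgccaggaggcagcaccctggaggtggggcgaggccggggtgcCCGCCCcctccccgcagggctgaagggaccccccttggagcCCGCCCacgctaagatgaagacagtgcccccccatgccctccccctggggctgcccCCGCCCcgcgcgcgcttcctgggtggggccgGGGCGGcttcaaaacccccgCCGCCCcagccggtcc

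The Tgfb2 window held a TATA box beginning 31 bases and an E-box beginning 51 bases before the start, with 2 CAGAC matches further upstream. TATA boxes were found in 12.4% and E-boxes in 6.02% of the 32851 windows of this length. In Ltbp1 a cyclic AMP response element (1.55% of windows) began 73 bases before the start, next to a CAGAC match at 64. The window at the other annotated start of Ltbp1, not shown, had no such element and had 2 CAGAC matches, at 148 and 97. Ltbp3 had a single CAGAC match, at 58, and CAGAC occurred in 42.2% of windows. The Tgfb1 window held no CAGAC, E-box or TATA match and had 5 GC boxes, a sequence present in 32.7% of windows. Its GC content was 75.2%, against 53.6% for Tgfb2, 56.8% for Ltbp1 and 47.2% for Ltbp3. These are matches of letters only, and AP-1 (4.46% of windows) had none in the lines shown. Windows not shown, of genes that were not called, were mixed. The Tgfbr2 window had a CAGAC match at 160 and no GC box, and that of Ltbp2 had 2 of each. The windows of Ltbp4 had GC boxes and no CAGAC. Tgfbr1 had 2 GC boxes at its upstream start and a CAGAC match at 203 at its other start. The tie of such matches to the levels was not tested.

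**Figure D1:**
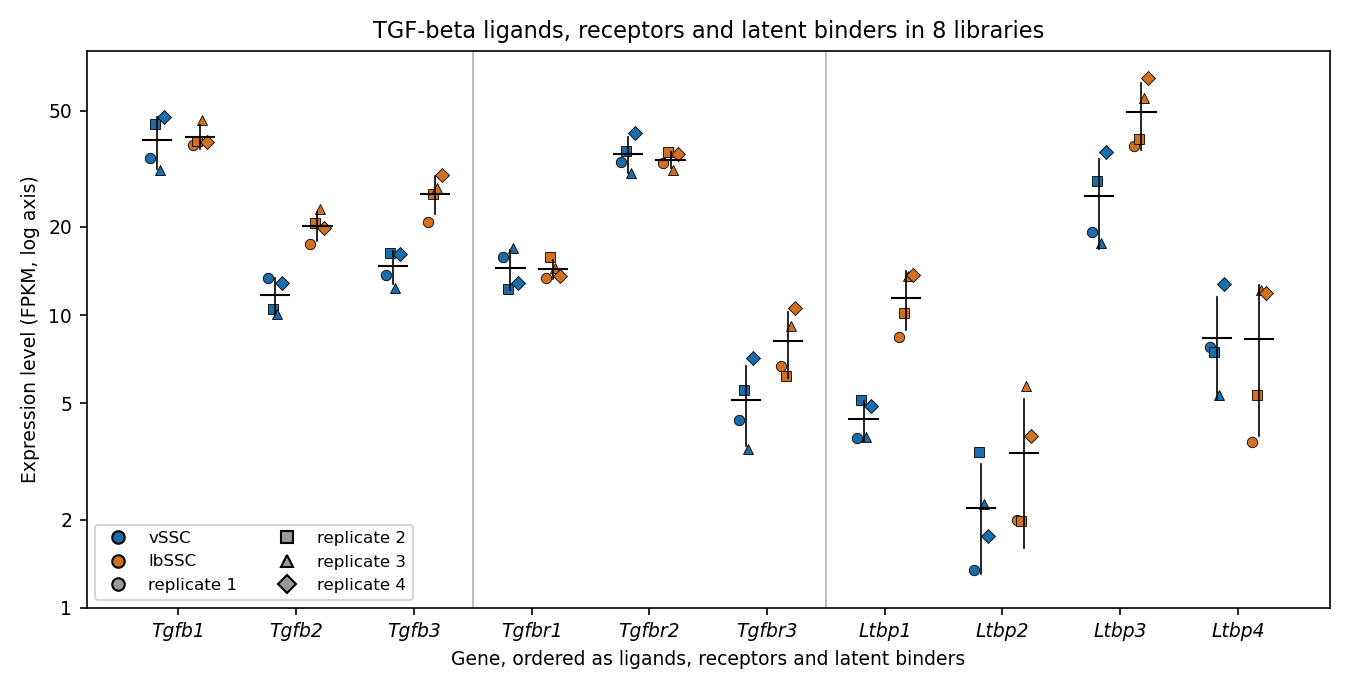
Expression level in FPKM on a log axis for each gene in the 4 vSSC and 4 lbSSC libraries, with marker shape for the replicate and the mean ± SD as bars. The groups stand apart for Tgfb2, Tgfb3, Ltbp1 and Ltbp3 and share a range for the other 6 genes.

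Among the ligands, Tgfb1 was the most abundant in every library. Tgfb1, the isoform stored most widely in bone matrix, had levels of 34.3, 45.0, 31.4 and 47.4 FPKM in vSSC replicates 1 to 4 and 38.0, 39.3, 46.3 and 39.1 in lbSSC. The lbSSC values lay within the span of the vSSC values. The means were 39.5 ± 7.87 and 40.7 ± 3.80 FPKM (SD, n = 4 each), and the difference was -0.06 ± 0.14 (limma adjusted p = 0.794).

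Tgfb2, an isoform needed for skeletal and heart development, stood at 13.4, 10.5, 10.1 and 12.9 FPKM in vSSC and at 17.4, 20.6, 23.0 and 19.8 in lbSSC. The highest vSSC library stayed below the lowest lbSSC library. The mean was 11.7 ± 1.69 against 20.2 ± 2.28 FPKM, 1.73-fold higher in lbSSC, with a difference of -0.74 ± 0.13 (limma adjusted p = 0.00252).

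Tgfb3, the isoform known for palate fusion and cartilage formation, moved with it. Its levels were 13.8, 16.3, 12.4 and 16.2 FPKM in vSSC and 20.9, 25.9, 27.1 and 30.1 in lbSSC, again with no overlap. The mean was 14.7 ± 1.90 against 26.0 ± 3.85 FPKM, 1.77-fold higher in lbSSC (-0.78 ± 0.14, limma adjusted p = 0.00232). The locus of Tgfb3 overlaps that of Ttll5 on the other strand, and library chemistry that does not mark strand cannot tell their reads apart where they overlap. Ttll5 ranged from 1.06 to 3.19 FPKM in vSSC and from 1.57 to 3.59 in lbSSC (-0.32 ± 0.24, limma adjusted p = 0.351).

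The same ligand levels can be given as shares of their sum. Tgfb1 made up 55.8% to 62.7% of the summed ligand FPKM in the vSSC libraries and 43.9% to 49.8% in lbSSC. The share of Tgfb3 was 21.1% to 23.1% in vSSC and 27.3% to 33.8% in lbSSC, and that of Tgfb2 14.6% to 21.8% and 22.2% to 24.0%. None of these ranges overlap between the sites. The shares depend on each other and restate the levels above, so this is no separate result. The ratio of Tgfb1 to the other 2 ligands together was 1.49 ± 0.20 in vSSC and 0.887 ± 0.0914 in lbSSC. A share within a library does not change when all values of that library are scaled, and no test was made of these shares. The summed ligand level was 65.9 ± 10.2 FPKM in vSSC and 86.9 ± 8.32 in lbSSC, with an overlap of 76.4 in the highest vSSC library and 76.3 in the lowest lbSSC library.

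**Figure D2:**
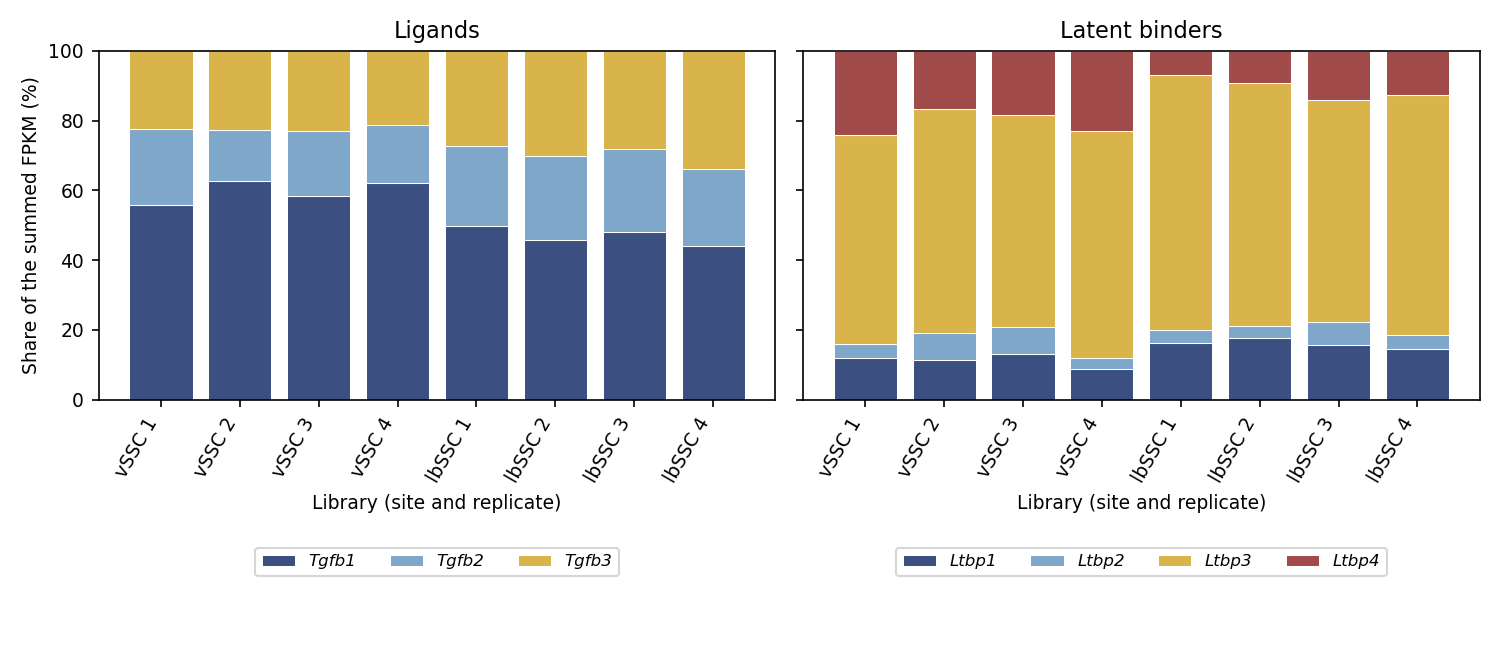
Share of each gene in the summed FPKM of the 3 ligands (left) and of the 4 latent binders (right), one stacked bar per library. Tgfb1 fills more than 55% of the ligand bar in each vSSC library and less than 50% in each lbSSC library, and Ltbp3 is the largest part of every latent binder bar.

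The receptors that carry the signal were at like levels. Tgfbr2, the type II receptor that binds ligand first, stood at 33.4, 36.4, 30.5 and 42.0 FPKM in vSSC and 33.0, 36.1, 31.4 and 35.6 in lbSSC. Its groups overlapped almost entirely, with a difference of 0.06 ± 0.12 (limma adjusted p = 0.749). Tgfbr1, the type I receptor kinase, stood at 15.8, 12.3, 16.9 and 12.8 FPKM in vSSC and 13.4, 15.8, 14.5 and 13.6 in lbSSC. Here too the lbSSC values lay inside the vSSC span, and the difference was 0.00 ± 0.13 (limma adjusted p = 0.991). Tgfbr2 exceeded Tgfbr1 in all 8 libraries, by 2.54 ± 0.69 times in vSSC and 2.38 ± 0.20 times in lbSSC.

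Tgfbr3, or betaglycan, is a coreceptor without kinase activity that presents ligand, Tgfb2 in particular, to the type II receptor. It stood at 4.39, 5.55, 3.48 and 7.14 FPKM in vSSC and 6.70, 6.21, 9.17 and 10.6 in lbSSC. The highest vSSC library lay above the lower 2 lbSSC libraries. The mean was 5.14 ± 1.58 against 8.16 ± 2.06 FPKM, with a difference of -0.58 ± 0.21 that missed the threshold (limma adjusted p = 0.0628). It passed without vSSC replicate 4 (-0.73, limma adjusted p = 0.0229) but was not called in 20 of 22 alternatives. Of these, 2 were chosen after the data were seen. Without vSSC replicates 1 and 3 the difference was -0.30 (limma adjusted p = 0.418). With the share of ribosomal protein transcripts as a covariate, described below, it was 0.14 (limma adjusted p = 0.802).

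Ltbp1, which binds the small latent complex of all isoforms and ties it to fibronectin and fibrillin, had the largest difference of the 10 genes. It stood at 3.81, 5.12, 3.82 and 4.90 FPKM in vSSC and 8.44, 10.2, 13.6 and 13.7 in lbSSC. Even the lowest lbSSC library was well above the highest vSSC library. The mean was 4.41 ± 0.692 against 11.5 ± 2.62 FPKM, 2.60-fold higher in lbSSC (-1.19 ± 0.17, limma adjusted p = 0.000613).

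Ltbp3, whose loss is known to disturb growth plates and bone mass, was the most abundant latent binder in every library. Its levels were 19.2, 28.7, 17.6 and 36.1 FPKM in vSSC and 37.8, 39.9, 55.1 and 64.7 in lbSSC. The groups do not overlap, but vSSC replicate 4 lay close to lbSSC replicate 1. The mean was 25.4 ± 8.66 against 49.4 ± 12.8 FPKM, 1.94-fold higher in lbSSC (-0.95 ± 0.23, limma adjusted p = 0.0134). Without vSSC replicates 1 and 3, a choice made after seeing the data, the difference was -0.57 and the call was lost (limma adjusted p = 0.137).

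The remaining latent binders were not called. Ltbp2, the family member that does not bind TGF-beta but shares the matrix domain structure, was the least abundant of the 10 genes at both sites. It stood at 1.35, 3.41, 2.27 and 1.76 FPKM in vSSC and 1.99, 1.98, 5.71 and 3.88 in lbSSC (-0.41 ± 0.28, limma adjusted p = 0.301). Ltbp4, which binds Tgfb1 and takes part in elastic fibre assembly, stood at 7.76, 7.46, 5.32 and 12.8 FPKM in vSSC and 3.68, 5.33, 12.2 and 11.9 in lbSSC. Its means were nearly equal, 8.34 ± 3.18 and 8.28 ± 4.41 FPKM (0.09 ± 0.34, limma adjusted p = 0.867), while the replicates of lbSSC differed by 53.3% of their mean (coefficient of variation). A second row of the table carries the name Ltbp4 under another identifier with a low-data status, at 1.20 FPKM or less, and was not used.

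Within the latent binder family Ltbp4 took 16.7% to 24.1% of the summed FPKM in vSSC and 7.08% to 14.1% in lbSSC, without overlap. Ltbp1 took 8.80% to 13.2% in vSSC and 14.6% to 17.7% in lbSSC, also without overlap. The share of Ltbp3 was 59.8% to 65.0% and 63.6% to 72.8%, and that of Ltbp2 3.17% to 7.81% and 3.45% to 6.59%, so for both the ranges met. These shares too restate the levels above and were not tested. The summed level of the 4 genes was 40.4 ± 12.2 FPKM in vSSC and 72.5 ± 21.0 in lbSSC, with ranges of 29.0 to 55.6 and 52.0 to 94.2.

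By level, the 10 genes kept a similar order at both sites. In vSSC the mean FPKM fell from Tgfb1, Tgfbr2 and Ltbp3 through Tgfb3, Tgfbr1, Tgfb2 and Ltbp4 to Tgfbr3, Ltbp1 and Ltbp2. Neighbours in that order overlapped between libraries, apart from the steps from Ltbp3 to Tgfb3 and from Ltbp1 to Ltbp2. In lbSSC Ltbp3 came first, ahead of Tgfb1, Tgfbr2, Tgfb3, Tgfb2, Tgfbr1, Ltbp1, Ltbp4, Tgfbr3 and Ltbp2. There the libraries did not overlap at the steps from Tgfb1 to Tgfbr2, Tgfbr2 to Tgfb3, Tgfb2 to Tgfbr1 and Tgfbr3 to Ltbp2. Tgfb2 thus stood below Tgfbr1 in vSSC and above it in lbSSC.

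**Figure D3:**
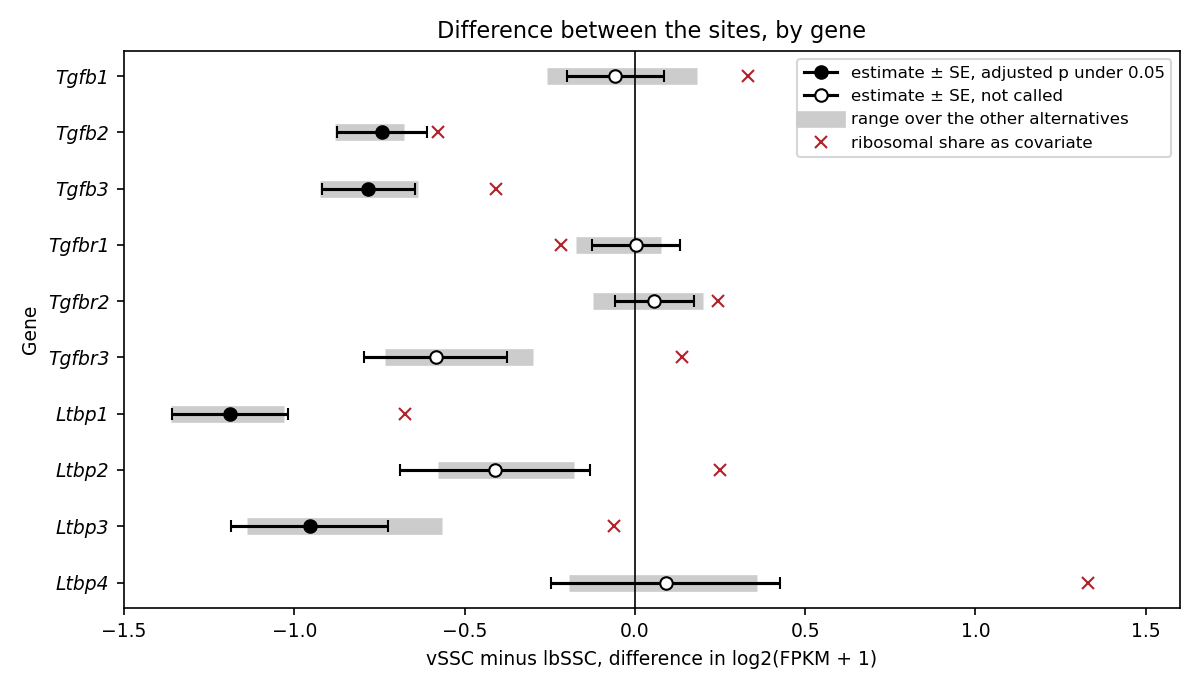
Difference between the sites in log2(FPKM + 1) for each gene, as estimate ± SE (points, filled where the adjusted p was under 0.05), with grey bars for the range over alternative settings and crosses for the fit that includes the ribosomal share. The filled points run from -1.19 for Ltbp1 to -0.74 for Tgfb2, and every cross lies to the right of its point except that of Tgfbr1.

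A property of the libraries moved with these genes. Transcripts of 83 cytosolic ribosomal proteins made up 18.3% to 21.4% of the FPKM in vSSC and 15.7% to 18.4% in lbSSC. Long transcripts were also lower relative to short ones in the vSSC libraries: the difference in log2 level between the longest 25% and the shortest 25% of transcripts, as the median deviation from each gene's mean, ran from -0.35 to 0.06 in vSSC and from -0.04 to 0.36 in lbSSC. Ltbp3 was lower where the ribosomal share was higher, from 64.7 FPKM at 15.7% to 17.6 FPKM at 21.4%. The female vSSC replicate 4 and the male lbSSC replicate 1 had nearly the same share, 18.3% and 18.4%. In these single libraries Ltbp3 was at 36.1 and 37.8 FPKM and Ltbp1 at 4.90 and 8.44. Tgfb2 was at 12.9 and 17.4, and Tgfb3 at 16.2 and 20.9. For Ltbp3 they were the highest vSSC and the lowest lbSSC library.

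With that share as a covariate, a fit chosen after the data were seen, 623 genes were called between the sites in place of 2518. None of the 4 genes stayed called, and the difference was -0.67 for Ltbp1 (limma adjusted p = 0.0589), -0.58 for Tgfb2 (0.128), -0.41 for Tgfb3 (0.181) and -0.06 for Ltbp3 (0.886). Ltbp4 became the one called gene of the 10, higher in vSSC by 1.33 (limma adjusted p = 0.0176). The site and the ribosomal share overlap so far in these libraries that their parts in a difference cannot be told apart. When a loess fit on transcript length was subtracted, also chosen after the data were seen, the same 4 genes were called lower, from -1.09 for Ltbp1 to -0.69 for Tgfb2.

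**Figure D4:**
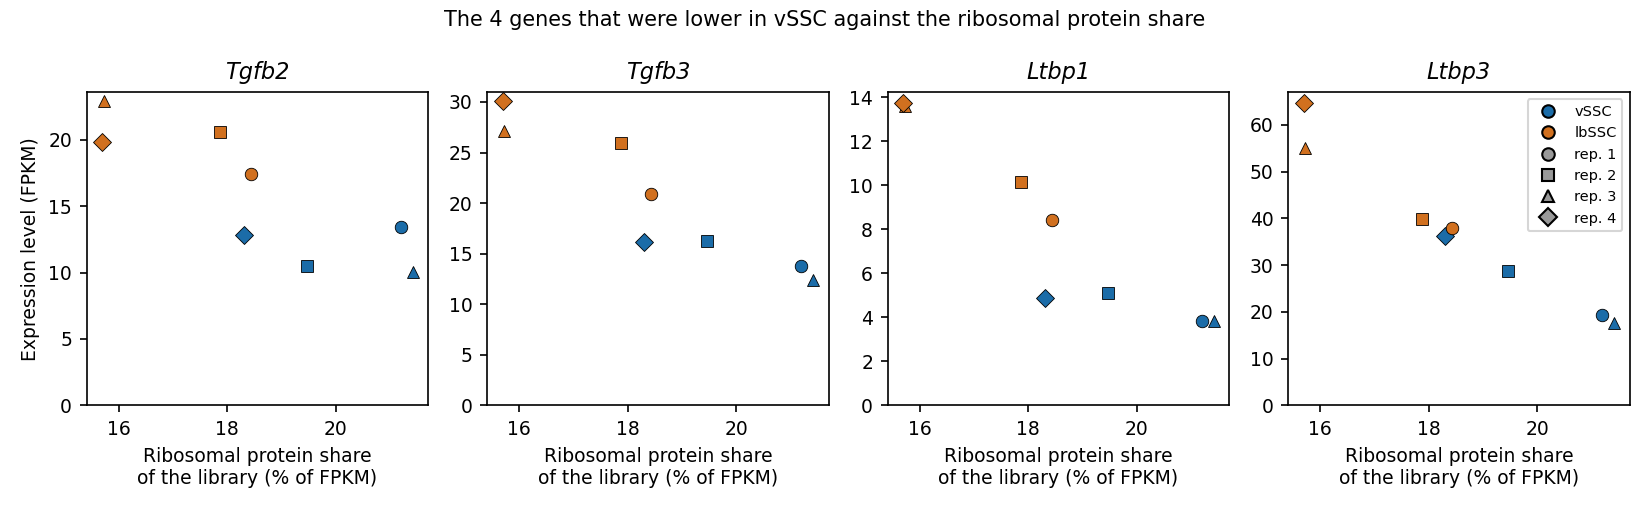
Level of Tgfb2, Tgfb3, Ltbp1 and Ltbp3 in FPKM (vertical, from 0) against the share of ribosomal protein transcripts in the library (horizontal, % of FPKM), one point per library coloured by site. vSSC replicate 4 and lbSSC replicate 1 share a value near 18.3% and lie close together for Ltbp3 but apart for Ltbp1.

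Libraries of one site also differed among themselves. In vSSC, replicates 1 and 3 both lay below replicates 2 and 4 for 6 of the 10 genes: Tgfb1, Tgfb3, Tgfbr2, Tgfbr3, Ltbp1 and Ltbp3. The same pattern was present in 19.9% of tested genes, and these 2 libraries had the highest ribosomal shares, 21.2% and 21.4%. In lbSSC the female replicates 3 and 4 had higher Tgfb3, Tgfbr3, Ltbp1, Ltbp2, Ltbp3 and Ltbp4 than the male replicates 1 and 2, and ribosomal shares of 15.7% each against 18.4% and 17.9%. Both female lbSSC libraries lay above both male ones in 15.9% of tested genes.

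Between the sexes, with site as a covariate, 0 of the 10 genes were called by limma, and 0.0466% of tested genes were. At an unadjusted p under 0.05 there was 1 of the 10, against 8.31% of tested genes. This was Ltbp4, with means of 6.06 FPKM in male and 10.6 in female libraries and a male minus female difference of -0.69 ± 0.28 (limma adjusted p = 0.585). The site difference was not shown to depend on sex: the interaction called 0 of 10 genes and 0.00% of tested genes. At an unadjusted p under 0.05 were 2, Ltbp4 (1.14 ± 0.45) and Ltbp2 (1.04 ± 0.43), both with limma adjusted p = 0.981, against 3.77% of tested genes.

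The other genes of the pathway were followed in 5 lists by role, with 88 genes in all, of which 76 were tested. Of these, 6 were higher and 18 lower in vSSC, that is 7.89% and 23.7%, beside 14.3% and 9.17% of all tested genes. The median difference was -0.15. Itgb3, Nedd4l and Fst, 3 of the 18, reached 1 FPKM in all lbSSC libraries and in at most 1 vSSC library. They thus passed the filter through the site where they were high, which favours a call. Of all 275 tested genes that reached it at a single site in this way, 70 were called higher and 135 lower. Among the other 73 genes 6 were higher and 15 lower (8.22% and 20.5%), beside 14.0% and 8.12% of all tested genes without that property. Scaling moved the counts to 3 higher and 21 lower after quantile normalization (10.2% and 10.2% of all tested genes) and to 5 and 24 when rescaled to one sum (9.34% and 12.7%). Leaving out vSSC replicate 4 gave 6 higher and 22 lower, where 17.5% and 10.4% of all tested genes were higher and lower. In the settings named next, fewer genes were called in the whole table as well as in the lists. Without lbSSC replicate 3 the counts were 5 and 10, where 7.92% and 6.38% of all tested genes were higher and lower. Without vSSC replicates 1 and 3 they were 3 and 7, where the shares were 4.69% and 5.52%. With the ribosomal share as a covariate 4 were higher and 5 lower, where the shares were 2.21% and 3.60%. Of the genes named here, Tgm2, Aspn, Nrep, Dcn, Col3a1 and Fst were called under every alternative in which they were tested.

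Genes that tether, activate or process the latent complex were mostly lower where they were called. Of 17 tested, 5 fell and 1 rose (median -0.33). That is 29.4% and 5.88%, beside 9.17% and 14.3% of all tested genes. Itgb5 and Itgb3, integrin beta subunits that pair with the alpha v chain to bind the TGF-beta propeptide, were at 28.5 ± 3.14 against 46.7 ± 3.83 FPKM (-0.70 ± 0.11, limma adjusted p = 0.00136) and 0.808 ± 0.368 against 2.42 ± 0.630 FPKM (-0.92 ± 0.19, 0.00645). Itgb3 was under 1 FPKM in 3 of 4 vSSC libraries, and its entry into the test rested on lbSSC. The partner chain Itgav was at 20.3 ± 3.82 against 25.4 ± 2.62 FPKM and was not called (limma adjusted p = 0.115), and Itgb6 was listed at 0 in all libraries. Bmp1, a protease that trims procollagens and can cleave Ltbp1, fell from 45.7 ± 3.20 FPKM in lbSSC to 29.7 ± 2.35 in vSSC (-0.61 ± 0.10, limma adjusted p = 0.00184). With the ribosomal share as a covariate the calls of Itgb5, Bmp1 and Itgb3 were lost (limma adjusted p = 0.0798, 0.0675 and 0.201). That of Itgb3 was also lost without vSSC replicates 1 and 3 (limma adjusted p = 0.0527). The single rise was that of Tgm2, a transglutaminase that crosslinks matrix proteins and latent complexes, at 35.7 ± 3.70 against 7.80 ± 1.33 FPKM (2.07 ± 0.14, limma adjusted p = 1.91e-06).

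Among coreceptors and extracellular modulators 4 of 11 tested genes fell and 1 rose (median -0.22). That is 36.4% and 9.09%, beside 9.17% and 14.3% of all tested genes. Aspn, asporin, a small proteoglycan known to bind TGF-beta and curb its action on cartilage cells, stood at 61.5, 46.5, 70.0 and 32.5 FPKM in vSSC and 10.5, 14.7, 14.4 and 11.6 in lbSSC (1.91 ± 0.21, limma adjusted p = 9.88e-05). All vSSC libraries were above all lbSSC libraries. Dcn, decorin, another proteoglycan that binds TGF-beta, went the other way, at 788.6 ± 52.7 against 1167 ± 68.1 FPKM (-0.57 ± 0.11, limma adjusted p = 0.00333). Nrep, a small neuronal regeneration related protein, fell from 763.2 ± 28.1 FPKM in lbSSC to 439.8 ± 20.1 in vSSC (-0.79 ± 0.10, limma adjusted p = 0.000176). Bambi, a decoy receptor without a kinase domain, differed by -0.38 ± 0.11 (limma adjusted p = 0.0277), a call that was lost in 8 of 22 alternatives, among them the removal of each of 6 libraries other than vSSC replicate 3 and lbSSC replicate 4. Eng, the coreceptor endoglin, is the CD105 of the sort, on which these cells were negative, and stood at 0.262 to 0.839 FPKM in vSSC and 0.805 to 1.17 in lbSSC, too low to be tested.

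In the Smad list 3 of 21 tested genes fell and 2 rose (median -0.09), and the 23.8% called was close to the 23.5% of all tested genes. Smad3, which carries the signal of the activated type I receptor, stood at 12.6 ± 1.82 FPKM in vSSC and 21.4 ± 3.63 in lbSSC (-0.72 ± 0.15, limma adjusted p = 0.00595). Smad2, the other receptor-activated Smad of the pathway, had a difference of the opposite sign that was not called (0.30 ± 0.13, limma adjusted p = 0.119). Ski, a corepressor that binds Smads, was at 16.8 ± 3.45 against 28.6 ± 6.66 FPKM (-0.73 ± 0.18, limma adjusted p = 0.0156). The call of Smad3 was lost without vSSC replicates 1 and 3 (limma adjusted p = 0.0672), as was that of Ski (0.136), which also missed the threshold without lbSSC replicate 3 (0.0517). With the ribosomal share as a covariate neither was called, at -0.26 for Smad3 (limma adjusted p = 0.410) and -0.11 for Ski (0.817). Fkbp1a, an immunophilin that holds the type I receptor inactive, was at 261.8 ± 17.4 against 189.6 ± 26.6 FPKM (0.47 ± 0.12, limma adjusted p = 0.0163). Its call was lost in 3 of 22 alternatives, among them the removal of vSSC replicate 1 (0.0508). Over these alternatives the difference ran from 0.26 to 0.54 and the limma adjusted p reached 0.424. Nedd4l, a ubiquitin ligase for activated Smads, was at 0.493 ± 0.331 against 1.32 ± 0.140 FPKM (-0.67 ± 0.19, limma adjusted p = 0.0273), a call lost in 10 of 21 alternatives, among them the removal of vSSC replicate 1 or 3 or lbSSC replicate 2, 3 or 4. All 4 vSSC values of Nedd4l were under 1 FPKM and all lbSSC values above it. The inhibitory Smad7 was at 10.7 ± 2.70 and 10.8 ± 1.28 FPKM.

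Of 22 tested genes known to respond to TGF-beta, 4 fell and 2 rose (median -0.11), and 16 were not called. The 27.3% called was near the 23.5% of all tested genes. Col3a1, a fibrillar collagen, was at 225.1 ± 13.8 against 448.0 ± 79.6 FPKM (-0.98 ± 0.13, limma adjusted p = 0.000370), and Lox, which crosslinks collagen, at 51.2 ± 2.70 against 77.3 ± 15.8 FPKM (-0.56 ± 0.15, 0.0184). The call of Lox was lost without lbSSC replicate 3 (limma adjusted p = 0.0558). Cdkn1a, a cell cycle inhibitor, was lower as well (-0.50 ± 0.12, limma adjusted p = 0.0129). Tgfbi, a secreted matrix protein named for its induction by TGF-beta, was higher in vSSC, at 160.5 ± 9.68 against 121.2 ± 8.78 FPKM (0.40 ± 0.10, limma adjusted p = 0.0131), though not after quantile normalization (0.17, limma adjusted p = 0.167).

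Activins use the same Smads through other receptors, and of 12 listed genes 5 were tested. Of these, 2 fell and 0 rose (40% and 0%, beside 9.17% and 14.3% of all tested genes). The filter admitted Fst, 1 of the 2, only through lbSSC. Fst, follistatin, which binds and blocks activin, was listed at 0 in vSSC replicate 1 and was at 0.685, 0.285 and 0.552 FPKM in the other vSSC libraries, against 3.19, 3.46, 3.06 and 2.85 in lbSSC (-1.61 ± 0.18, limma adjusted p = 0.000124). Inhba, the activin A subunit, was at 1.64 ± 0.717 against 3.31 ± 0.404 FPKM (-0.74 ± 0.20, limma adjusted p = 0.0198). The call of Inhba was lost without lbSSC replicate 3 or 4 or vSSC replicate 2, with limma adjusted p from 0.0510 to 0.0601.

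**Figure D5:**
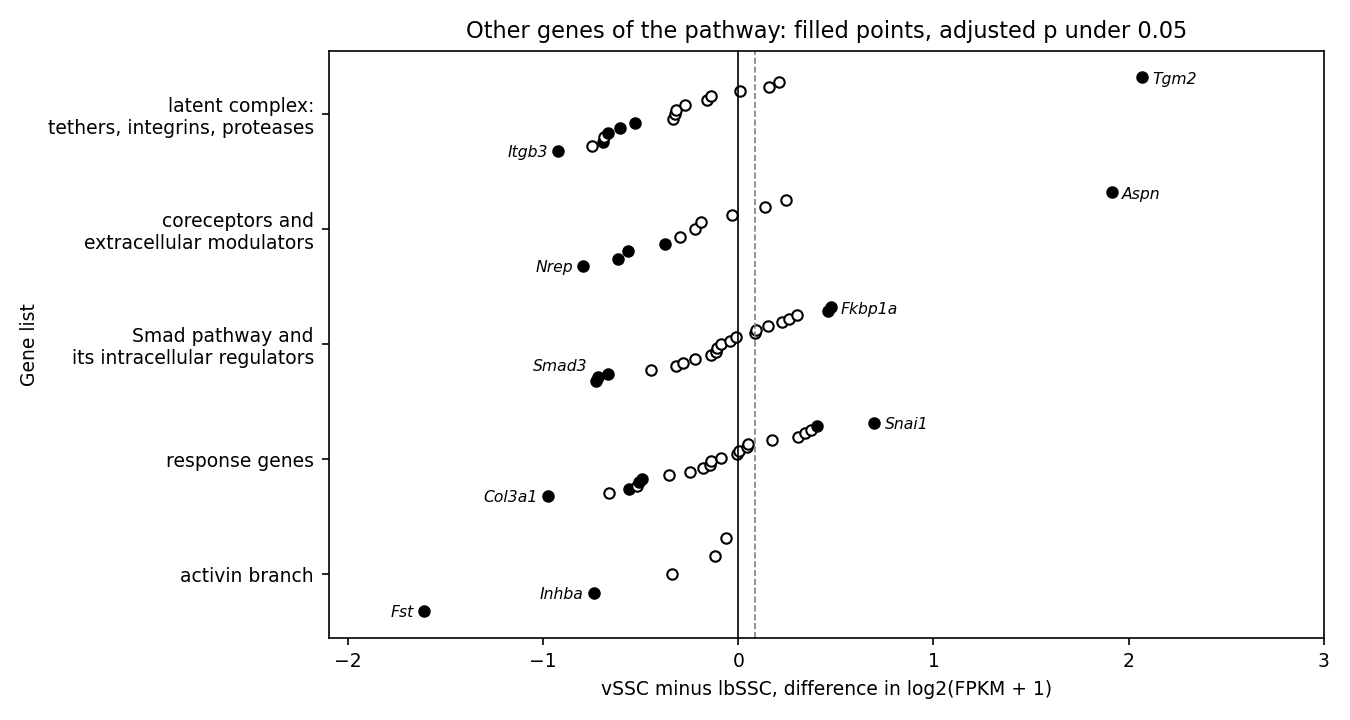
Difference between the sites in log2(FPKM + 1) for the 76 tested pathway genes in 5 lists, one point per gene, filled where the adjusted p was under 0.05; the dashed line is the median of all tested genes, 0.08. Of the filled points 18 lie to the left of 0 and 6 to the right, with Tgm2 and Aspn farthest to the right.

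Markers of the sort and of other cells were checked in the same libraries. The calls among them stand beside 14.3% of all tested genes called higher in vSSC and 9.17% called lower. Cd200 was at 84.2 to 142.7 FPKM, while Pecam1 (CD31), Ptprc (CD45) and Thy1 stayed under 1 and Enpep (6C3) reached 1.76. Ptprc was at 0.331 to 0.949 FPKM in vSSC and 0.025 to 0.0688 in lbSSC. Enpep was at 0.111 to 0.484 and 0.709 to 1.76 FPKM, and neither gene overlapped between the sites. Of 5 cartilage markers 2 were called, both higher in vSSC without overlap: Matn3 at 1506 ± 88.6 against 541.5 ± 85.9 FPKM (1.49 ± 0.13, limma adjusted p = 1.74e-05) and Hapln1 at 1887 ± 176.3 against 1004 ± 107.6 FPKM (0.91 ± 0.12, limma adjusted p = 0.000389). Col2a1 had a difference of -0.41 ± 0.28 and, like Sox9 and Acan, was not called (limma adjusted p = 0.301). The summed level of the 5 was 11307 to 19221 FPKM in vSSC and 12914 to 22111 in lbSSC. Of 10 blood and immune markers 6 were tested and 4 were called (66.7%), S100a8, S100a9, Lyz2 and Cd79a, all higher in vSSC. Cd79a stood at 3.67 to 6.27 FPKM in vSSC and 0.373 to 2.15 in lbSSC. Its lbSSC values alone did not meet the filter, so it was admitted through vSSC, where it was high, which favours a call. Cd3e was listed at 0 in every library. S100a8 stood at 117.9 to 192.1 FPKM in vSSC and 9.28 to 51.9 in lbSSC, and the summed level of the list, most of it haemoglobin, was 3692 to 5017 and 3820 to 7809 FPKM. The 5 endothelial markers summed to 0.210 to 0.287 FPKM in vSSC and 0.0324 to 0.178 in lbSSC. Of the tendon and fibroblast markers Col14a1 and Tnmd were lower and Dpt higher in vSSC, and the list summed to 76.1 to 113.0 against 112.3 to 176.0 FPKM. Of 5 osteoblast markers Sp7 was higher in vSSC, at 44.8 ± 3.28 against 29.1 ± 4.23 FPKM (limma adjusted p = 0.00493). Bglap was lower, at 69.9 ± 31.5 against 206.9 ± 104.7 FPKM (limma adjusted p = 0.0123), and Runx2, Ibsp and Alpl were not called. Among smooth muscle and pericyte markers Pdgfrb was lower in vSSC (limma adjusted p = 0.00716) and Cspg4 was not called. The part of such cells in the levels of the TGF-beta genes was not tested.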

How the data were processed

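The labels' protocols name RNeasy columns for RNA, SMART-Seq v4 for cDNA and Nextera XT for libraries, a chemistry that does not mark strand. FPKM for each protein-coding gene were deposited by the authors. The submitters' processing notes list Cufflinks 2.1.1, STAR 2.5.2, bcl2fastq 2.19 and the build GRCm38, with no settings. Library sums of FPKM lay from 460302 to 571869, read totals were not used here, and no counting interval is given.

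On the scale of log2(FPKM + 1), limma 3.58.1 (R 4.3.3) was run with a variance trend on all genes that passed the filter; site had no covariate, sex was adjusted for site, and another fit held the site by sex term. The genes, lists and tests were chosen with earlier results of these data known. Named are all 10 genes, up to 4 called genes with the smallest p per pathway list, the sort markers and the 3 genes nearest in pattern to the gene with the largest called change; a few others (Itgav, Itgb6, Smad2, Smad7, Fbn1, Fbn2, Ttll5, cell type markers) were added after their values were seen. Of the table's rows 98.9% matched GENCODE M21, which gave transcript lengths and overlaps. Alternatives were other pseudocounts, filters, scalings and variance models, a sex covariate, a replicate block and each library left out. The procedure was also run on simulated data. Their noise was independent between genes, so they could not show the effect of a trend shared within a library. The replicate numbers were not taken as pairs, since the labels name no shared animal and the deviations of same-numbered libraries had correlations from -0.09 to 0.44.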

Additional observations from a re-analysis of the deposited data

Results flagged for a closer look

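In lbSSC, Tgfb1 was at 46.3 FPKM in replicate 3 and at 38.0 to 39.3 in the other 3 libraries. The gap to the nearest library was larger, relative to the range of the group, than the value of 0.829 allows for 4 samples. Of 20 groups looked at, 10 genes at 2 sites, it was the only one past that value, and chance flags about 1 in 20.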

How the results depend on the processing

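The count of 4 genes lower in vSSC was found under all alternatives other than those named here, also under each other scaling. It was 5 with the replicate block and without vSSC replicate 4, where Tgfbr3 joined (limma adjusted p = 0.0301 with the block), and 3 without vSSC replicates 1 and 3. With the ribosomal share as a covariate 1 of the 10 genes was called, Ltbp4, which was higher; over single left-out libraries it ran from 4 to 5. Rescaling each library to one sum moved the median of all genes by -0.13; the 4 genes were lower relative to that too. The pathway count of 24 was 28 with the replicate block, ran from 15 (without lbSSC replicate 3) to 28 over left-out libraries, and was 10 without vSSC replicates 1 and 3 and 9 with the ribosomal share; the cause was not tested. Across genes, not every library correlated best with its own number. The sex and interaction counts were 0 under every alternative run. Ltbp2 was not tested at a minimum FPKM of 5. Over 22 alternatives the adjusted p of Tgfb1 ran from 0.276 to 0.995, and Tgfb2, Tgfb3 and Ltbp1 were called in 21, Ltbp3 in 20. Depth is unknown, and precision rests on 4 libraries per site.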

Other observations

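The fibrillins, microfibril proteins to which latent complexes attach, had differences of the same sign as Ltbp1 without passing the test. Fbn1 stood at 6.03 to 12.3 FPKM in vSSC and 10.6 to 21.4 in lbSSC (-0.69 ± 0.24, limma adjusted p = 0.0546), and Fbn2 at 1.84 ± 0.845 against 3.76 ± 1.39 (-0.75 ± 0.25, limma adjusted p = 0.0521). The genes nearest in pattern to Ltbp1, by root mean square distance of centred log2(FPKM + 1) over 8 libraries, were 6030419C18Rik (0.0932), Ism1 (0.0966), a secreted isthmin, and Lrp5 (0.108), a Wnt coreceptor, where the median distance over all tested genes was 0.718. Lrp5 levels were 5.49, 8.32, 6.61 and 9.32 FPKM in vSSC and 12.8, 15.6, 20.9 and 23.5 in lbSSC.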
